A study of Homo sapiens with 21 samples.

Results

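To follow the enzymes that make serine, asparagine and folate-bound one-carbon units after DNA breaks and oxidative stress, 10 genes were examined by name in RNA-seq data from hTERT-HPNE cells: PHGDH, PSAT1, PSPH, ASNS, SHMT1, SHMT2, MTHFD1, MTHFD2, MTHFD1L and ALDH1L2. The rule for the choice names the genes and uses no measured value, but the choice was made with earlier results of these data known. All 10 were found among the 23368 genes listed, and all 10 were among the 19694 genes whose values varied over the libraries and could be tested. hTERT-HPNE is an immortalized, nontransformed human pancreatic cell line, and every library came from this one line, grown with EGF and puromycin in low-glucose medium. The 21 libraries formed 7 groups of 3 biological replicates. They were untreated cells collected at 0 h, cells collected 4, 8 or 24 h after 300 μM H2O2 (hydrogen peroxide, an oxidant), and cells collected 4, 8 or 24 h after 400 ng/ml NCS (neocarzinostatin, a radiomimetic drug that breaks both DNA strands).

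Values were rLog values, which are log2-scaled read counts that have been normalized between libraries and shrunken where reads are few. Differences of genes with few reads are therefore understated. Group differences were tested with limma, a linear model fitted across all 19694 genes, with Benjamini-Hochberg adjustment over all of them. A gene passed at an adjusted p under 0.05, and it was called differentially expressed when the log2 difference also exceeded 1. Medium was replaced at treatment and no vehicle-treated cells were collected at 4, 8 or 24 h, so an effect of treatment and an effect of time in fresh medium cannot be told apart in comparisons with untreated cells. The comparisons of H2O2 with NCS at the same time do not have this limit. All 6 comparisons with untreated cells share the same 3 untreated libraries. In these bulk libraries, a change in RNA per cell and a change in the share of cells expressing a gene cannot be told apart.

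One library stood apart. Replicate 2 of the H2O2 8 h group lay at distances of 14.7 to 15.1 from its own replicates over all tested genes, while the other 19 pairs of replicates lay 8.94 to 11.4 apart. In 9 of the 10 members, all but ALDH1L2, its difference from the untreated mean was the smallest of the 3 libraries of its group, and values without it are given where they change a call. The limma SE of a gene pools all 7 groups. Where the H2O2 8 h libraries spread more than the others, it understates the uncertainty at 8 h of H2O2. For MTHFD2 the SD was 0.204 at 8 h of H2O2 and 0.0404 in untreated cells, and for ALDH1L2 it was 0.0332 and 0.047. Library medians lay between 7.14 and 7.19, and the depth of each library is unknown because the values are not counts. VIM (mean log2 value 17.0), COL1A1 (17.8), FN1 (20.04) and NES (12.0) were high, and among pancreatic duct genes KRT18 (11.6) was high, KRT8 (7.93), KRT7 (6.93) and SOX9 (6.07) were near the middle of all genes, and KRT19 (0.60), CFTR (-1.34) and EPCAM (-1.76) were low. Of 8 duct genes tested, 3 rose and 1 fell at 24 h of H2O2, KRT7 by 0.31, KRT8 by 0.20 and SOX9 by 0.41 against a fall of KRT18 by 0.13, and 1 rose and 1 fell at 24 h of NCS; their part in the members' changes was not tested. Of the acinar, islet, leukocyte and endothelial markers, only CD68 (10.1) had a mean above that of PECAM1 (2.11), and PRSS1, CELA3A, PTF1A, INS and CD3E were listed at 0 in every library. CD68 rose by 0.52 at 24 h of NCS and by 0.17 at 24 h of H2O2; its part in the members' changes was not tested. Of the 7 mesenchymal and progenitor markers, 1 rose and 6 fell at 24 h of H2O2 and 3 rose and 1 fell at 24 h of NCS, and the part of this in the members' changes was not tested either.

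Cells make serine from a glycolytic intermediate in a chain of reactions run by PHGDH, PSAT1 and PSPH. SHMT1 in the cytosol and SHMT2 in mitochondria then move a carbon from serine to tetrahydrofolate. MTHFD2 and MTHFD1L in mitochondria pass this carbon on as formate, which MTHFD1 in the cytosol takes up for purines, thymidylate and methionine. ALDH1L2, also in mitochondria, instead releases the carbon as CO2. ASNS makes asparagine from aspartate and glutamine. Several of these genes are known targets of ATF4, the transcription factor of the integrated stress response, which binds composite C/EBP-ATF elements in DNA.

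The ASNS promoter holds a classical element of that kind, so the promoter windows of the members were searched for its core. RefSeq promoter windows of 300 bases (250 before the start and 50 after it, GRCh38.p14) were at hand for 7 of the 10 members, all but PSPH, SHMT2 and ALDH1L2. The motif TGATGNAA, read on both strands and with N for any base, was present in 2 of the 7, ASNS and MTHFD1L. The match in ASNS was fixed in advance, since the motif is the core of its known element. Whether the members hold the motif more often than other genes was not tested. It was present in 1270 of 35116 windows of this length (3.62%) and in 417 of the 12579 tested genes with a window (3.32%). ASNS has 2 windows, for 2 annotated starts, and the match began 68 bases before one start and was absent from the window of the other. In MTHFD1L, 3 of 4 windows held the same match, which began at positions -129, -90 and 24 from its different starts. PHGDH, PSAT1, SHMT1, MTHFD1 and MTHFD2 had no match in their windows, which says only that these letters are not there. The 250 bases before the start of ASNS (chr7:97872409-97872658, minus strand) and of PSAT1 (chr9:78296875-78297124, plus strand) are shown because these 2 genes had the most similar values of any pair of members, and the 30 bases around the match in MTHFD1L (chr6:150866346-150866375, plus strand) because it is the other match. Capitals mark the match.
ASNS: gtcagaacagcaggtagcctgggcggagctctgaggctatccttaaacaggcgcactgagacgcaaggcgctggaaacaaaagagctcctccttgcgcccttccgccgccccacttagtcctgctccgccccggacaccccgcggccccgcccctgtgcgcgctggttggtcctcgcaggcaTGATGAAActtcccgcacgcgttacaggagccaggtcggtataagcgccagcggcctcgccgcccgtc
PSAT1: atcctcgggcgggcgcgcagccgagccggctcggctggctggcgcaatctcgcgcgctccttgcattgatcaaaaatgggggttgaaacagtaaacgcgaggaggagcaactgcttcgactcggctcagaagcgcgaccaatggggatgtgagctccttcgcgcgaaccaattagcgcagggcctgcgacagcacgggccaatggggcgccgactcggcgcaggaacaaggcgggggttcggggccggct
MTHFD1L: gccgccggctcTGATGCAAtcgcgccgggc

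The serine synthesis enzymes rose at every time after H2O2 and, after NCS, only at 24 h did any of them pass as higher. PHGDH, which commits the glycolytic intermediate 3-phosphoglycerate to serine, had log2 values of 11.36, 11.23 and 11.33 in the untreated libraries. After H2O2 its values were 11.67, 11.69 and 11.71 at 4 h, 12.28, 12.03 and 12.34 at 8 h, then 12.33, 12.39 and 12.43 at 24 h. After NCS they were 11.31, 11.17 and 11.23 at 4 h, 11.16, 11.17 and 11.22 at 8 h, then 11.51, 11.58 and 11.60 at 24 h. All 9 H2O2 libraries were above all untreated libraries, the NCS libraries overlapped the untreated range at 4 h and were below it at 8 h, and those at 24 h were above it. PHGDH was higher than in untreated cells by 0.38, 0.91 and 1.08 at 4, 8 and 24 h of H2O2 (limma SE 0.0578, adjusted p = 2.68e-05, 1.18e-09 and 2.13e-11). The differences of -0.07 and -0.12 at 4 and 8 h of NCS did not pass, and that of 0.25 at 24 h did (limma adjusted p = 0.0015). That of -0.12 passed as lower with library medians aligned (limma adjusted p = 0.0202) and among genes with a mean of at least 5 (0.043).

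PSAT1, the aminotransferase that follows PHGDH, changed more. Its log2 values were 11.24, 11.06 and 11.17 in untreated cells. They were 11.84, 11.83 and 11.90 at 4 h of H2O2, 12.81, 12.44 and 12.73 at 8 h, then 12.71, 12.79 and 12.84 at 24 h. The NCS libraries had 11.04, 10.96 and 11.00 at 4 h, 11.19, 11.13 and 11.17 at 8 h, then 11.78, 11.82 and 11.84 at 24 h. Every H2O2 library was above every untreated one, and the NCS libraries were below the untreated range at 4 h, within it at 8 h and above it at 24 h. The difference from untreated cells was 0.71, 1.50 and 1.62 at 4, 8 and 24 h of H2O2 (limma SE 0.0657, adjusted p = 7.9e-08, 1.93e-11 and 3.82e-13), a fold of 3.08 at 24 h. It was 0.66 at 24 h of NCS (limma adjusted p = 1.37e-07), while -0.15 and 0.01 at 4 and 8 h did not pass. The difference of -0.15 at 4 h had a limma adjusted p of 0.138, and it passed as lower with library medians aligned (limma adjusted p = 0.034), among genes with a mean of at least 5 (0.0362) and without H2O2 8 h replicate 2 (0.015).

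PSPH, the phosphatase of the last step, differed from untreated cells by 0.27, 0.96 and 0.72 at 4, 8 and 24 h of H2O2 (limma SE 0.0583, adjusted p = 0.00101, 7.45e-10 and 7.12e-09). Its untreated values were 9.38, 9.29 and 9.24, and its H2O2 values were 9.59, 9.51 and 9.60 at 4 h, 10.41, 10.07 and 10.31 at 8 h, then 9.99, 10.03 and 10.04 at 24 h. After NCS the values were 9.09, 9.05 and 9.15 at 4 h, 9.35, 9.38 and 9.34 at 8 h, then 9.77, 9.76 and 9.80 at 24 h. PSPH fell by 0.20 at 4 h of NCS (limma adjusted p = 0.0202) and was higher by 0.48 at 24 h (limma adjusted p = 2.05e-06). The fall at 4 h did not pass when untreated replicate 1, NCS 4 h replicate 1 or NCS 4 h replicate 2 was left out. PSPH, PSAT1, SHMT1, MTHFD1, MTHFD2 and ASNS, 6 of the 10 members, have named pseudogenes, and reads shared with these copies make the values of these genes uncertain to that degree.

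**Figure D1:**
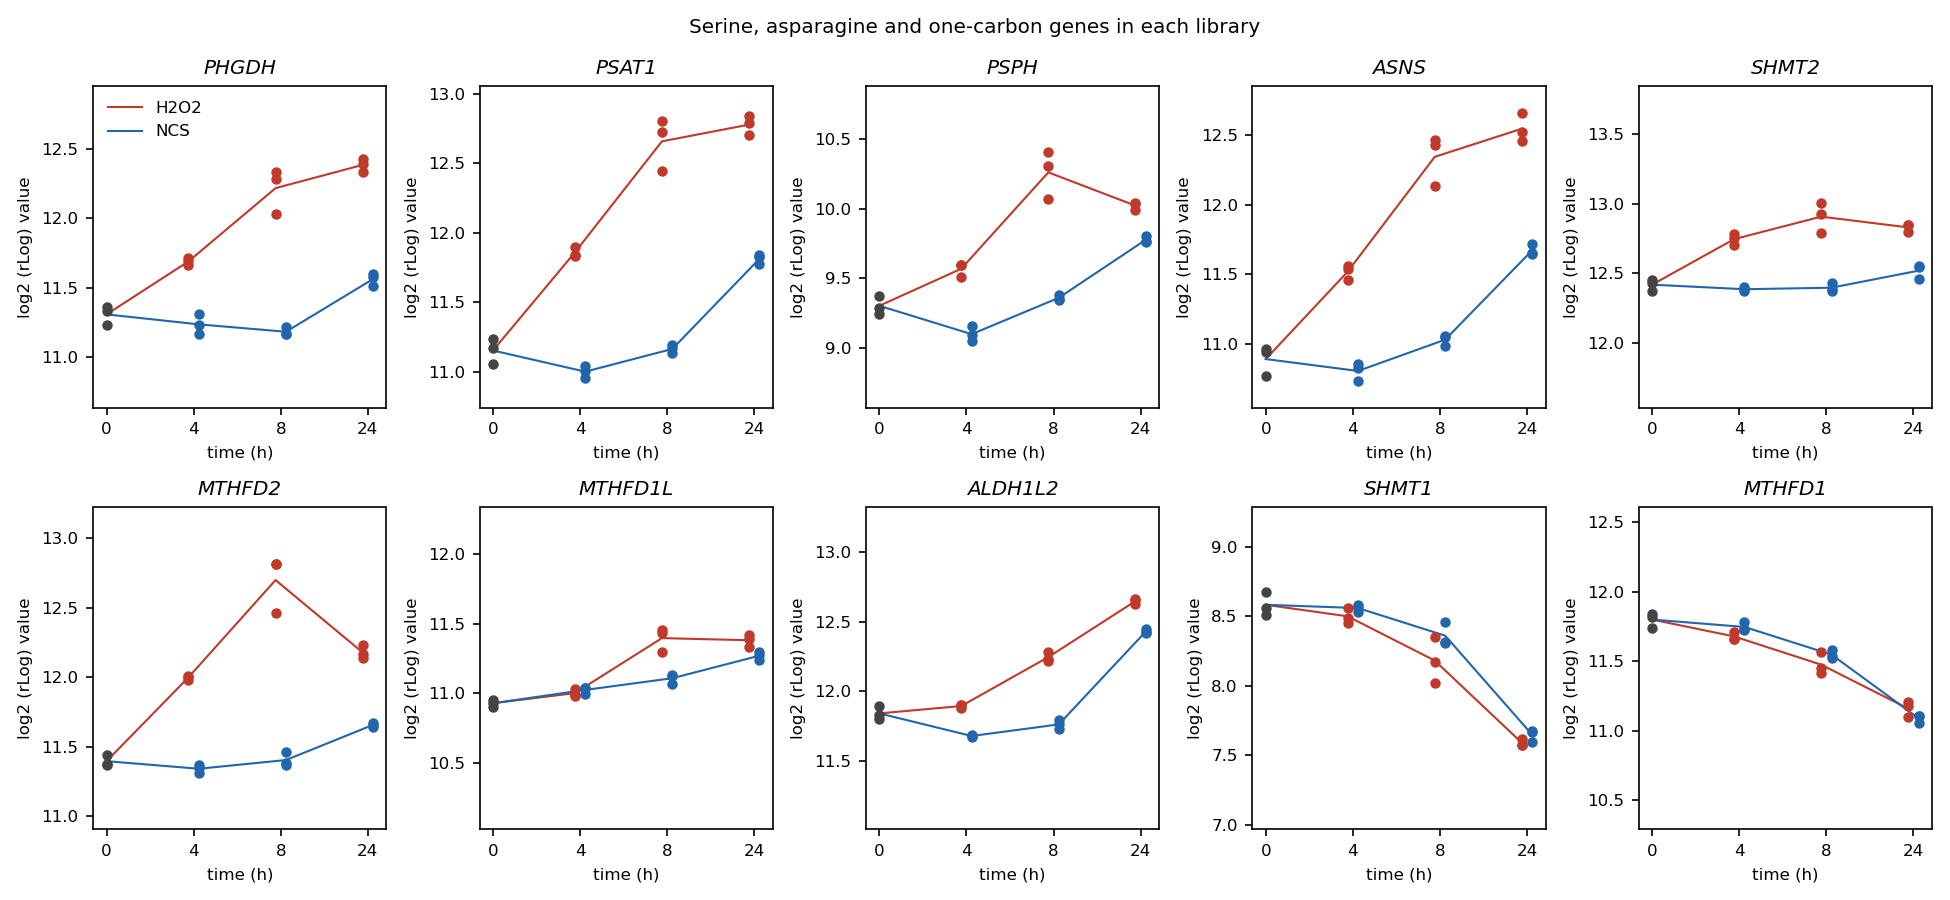
Log2 (rLog) value of each member in every library against time (0, 4, 8 and 24 h, evenly spaced); grey points are untreated, red H2O2 and blue NCS libraries, lines join group means, and every panel spans the same number of log2 units. The red line is above the blue one at 8 h in 8 panels, and in the SHMT1 and MTHFD1 panels both lines fall by 24 h.

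ASNS, asparagine synthetase, had values close in pattern to PSAT1. Its log2 values were 10.96, 10.77 and 10.94 in untreated cells and 11.46, 11.56 and 11.53 at 4 h of H2O2. They reached 12.43, 12.13 and 12.47 at 8 h and 12.46, 12.52 and 12.66 at 24 h. After NCS they were 10.85, 10.73 and 10.82 at 4 h, 10.98, 11.05 and 11.05 at 8 h, then 11.65, 11.65 and 11.72 at 24 h. All H2O2 libraries and the NCS libraries of 8 and 24 h were above all untreated ones. ASNS was higher than in untreated cells by 0.63, 1.45 and 1.66 at 4, 8 and 24 h of H2O2 (limma SE 0.0714, adjusted p = 9.25e-07, 5.99e-11 and 9.47e-13). The NCS differences were -0.09, 0.14 and 0.78, of which only the last passed (limma adjusted p = 4.25e-08). With all 19694 genes ordered from the largest rise to the largest fall at 24 h of H2O2, ASNS was number 10 and PSAT1 number 13.

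In mitochondria, SHMT2, which splits serine into glycine and a folate-bound carbon, was higher than in untreated cells by 0.33, 0.49 and 0.41 at 4, 8 and 24 h of H2O2 (limma SE 0.0409, adjusted p = 2.96e-06, 3.08e-08 and 1.19e-07). Its values were 12.45, 12.37 and 12.43 in untreated cells. After H2O2 they were 12.70, 12.75 and 12.78 at 4 h, 12.92, 12.79 and 13.01 at 8 h, then 12.79, 12.85 and 12.85 at 24 h. The NCS libraries lay between 12.37 and 12.43 at 4 and 8 h and between 12.46 and 12.55 at 24 h. No NCS difference passed for SHMT2, with -0.03, -0.02 and 0.10 in the order of time. The last had a limma adjusted p of 0.0622 and passed under 4 other settings, with a limma adjusted p of 0.0229 with library medians aligned, 0.00517 after quantile normalization, 0.0184 among genes with a mean of at least 5 and 0.0387 with a replicate block.

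MTHFD2, the mitochondrial dehydrogenase and cyclohydrolase of the folate pathway, had the largest differences among the mitochondrial members at 4 and 8 h of H2O2. It had 11.44, 11.38 and 11.37 in untreated cells, 11.98, 12.00 and 12.01 at 4 h of H2O2, 12.82, 12.46 and 12.82 at 8 h, then 12.13, 12.17 and 12.23 at 24 h. After NCS it had 11.37, 11.31 and 11.34 at 4 h, 11.38, 11.46 and 11.37 at 8 h, then 11.66, 11.64 and 11.67 at 24 h. The H2O2 libraries of 8 h were all above those of 24 h, and those of 24 h were all above those of 4 h. The differences from untreated cells were 0.60, 1.30 and 0.78 after H2O2 (limma SE 0.0623, adjusted p = 2.88e-07, 4.78e-11 and 5.8e-09). After NCS they were -0.05 and 0.01, which did not pass, and 0.26 at 24 h (limma adjusted p = 0.00226).

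MTHFD1L, which makes formate in mitochondria, was 10.93, 10.90 and 10.95 in untreated cells. It ranged from 10.98 to 11.03, 11.30 to 11.46 and 11.33 to 11.42 at 4, 8 and 24 h of H2O2, and from 11.00 to 11.04, 11.07 to 11.13 and 11.24 to 11.30 at the same times of NCS. All treated libraries were above the untreated ones, but the differences of 0.07 for H2O2 and 0.10 for NCS at 4 h did not pass (limma adjusted p = 0.0961 and 0.0659). Both passed after quantile normalization (limma adjusted p = 0.0233 and 0.0157) and in a fit of only the groups compared (0.0488 and 0.0363). The NCS difference also passed among genes with a mean of at least 5 (limma adjusted p = 0.0298). At 8 and 24 h MTHFD1L was higher by 0.47 and 0.45 after H2O2 (limma SE 0.0344, adjusted p = 6.41e-09 and 2.95e-09) and by 0.18 and 0.34 after NCS (limma adjusted p = 0.000608 and 1.58e-07). It was the one member to pass as higher at 8 h of NCS.

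ALDH1L2, which turns mitochondrial formyl-folate into CO2 with production of NADPH, rose late. Its values were 11.89, 11.83 and 11.80 in untreated cells. They were 11.90, 11.88 and 11.91 at 4 h, 12.28, 12.24 and 12.22 at 8 h, then 12.63, 12.66 and 12.66 at 24 h of H2O2. After NCS they were 11.68, 11.67 and 11.69, then 11.79, 11.77 and 11.73, and at 24 h 12.45, 12.43 and 12.42. The NCS libraries of 4 and 8 h were all below the untreated ones and those of 24 h all above. The H2O2 difference was 0.05 at 4 h and did not pass, and it was 0.40 and 0.81 at 8 and 24 h (limma SE 0.0232, adjusted p = 3.73e-10 and 5.73e-15). After NCS, ALDH1L2 fell by 0.16 at 4 h and by 0.08 at 8 h and was 0.59 higher at 24 h (limma adjusted p = 5.18e-05, 0.0169 and 2.65e-13). The fall at 8 h did not pass in a fit of only the groups compared (limma adjusted p = 0.133) or after quantile normalization (0.0907), nor without untreated replicate 1 or NCS 8 h replicate 3.

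The cytosolic one-carbon enzymes SHMT1 and MTHFD1 went the other way after both treatments. SHMT1, the cytosolic relative of SHMT2, had 8.56, 8.51 and 8.68 in untreated cells. Its values were 8.49, 8.56 and 8.45 at 4 h, 8.02, 8.35 and 8.18 at 8 h, then 7.58, 7.58 and 7.62 at 24 h of H2O2. They were 8.56, 8.58 and 8.53, then 8.32, 8.31 and 8.46, and at 24 h 7.68, 7.67 and 7.60 after NCS. Untreated and 4 h libraries overlapped, and all 8 h and 24 h libraries were below the untreated ones. SHMT1 fell by 0.40 and 0.99 at 8 and 24 h of H2O2 (limma SE 0.0635, adjusted p = 5.06e-05 and 2.56e-10) and by 0.22 and 0.94 at 8 and 24 h of NCS (limma adjusted p = 0.0145 and 6.75e-10). The fall at 8 h of NCS did not pass when only the groups compared were fitted (limma adjusted p = 0.0541) or without untreated replicate 3 or NCS 8 h replicate 1 or 2.

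MTHFD1, the cytosolic enzyme that makes the folate forms used for purines and thymidylate, was 11.74, 11.82 and 11.84 in untreated cells. After H2O2 it was 11.66, 11.66 and 11.71 at 4 h, 11.41, 11.56 and 11.45 at 8 h, then 11.18, 11.10 and 11.21 at 24 h. After NCS it was 11.78, 11.72 and 11.73 at 4 h, 11.52, 11.54 and 11.58 at 8 h, then 11.06, 11.11 and 11.11 at 24 h. Only the NCS 4 h libraries overlapped the untreated range. MTHFD1 fell by 0.12, 0.32 and 0.64 at 4, 8 and 24 h of H2O2 (limma SE 0.0369, adjusted p = 0.0118, 1.18e-06 and 5.7e-11) and by 0.25 and 0.71 at 8 and 24 h of NCS (limma adjusted p = 3.93e-05 and 1.38e-11). The fall at 4 h of H2O2 did not pass without untreated replicate 3.

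**Figure D2:**
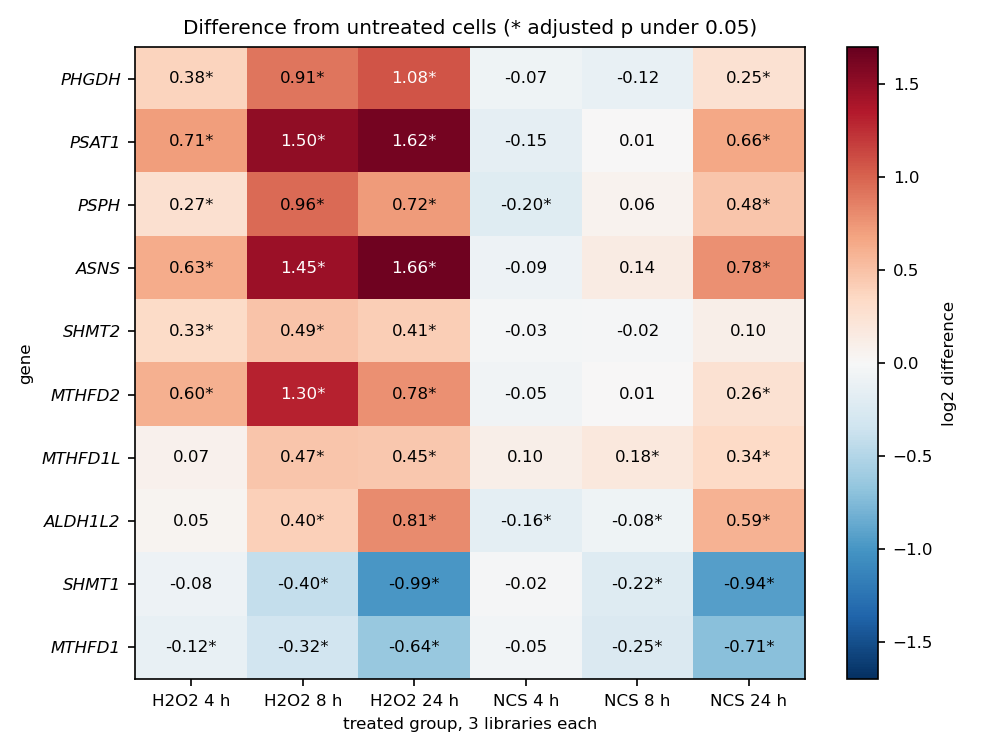
Log2 difference of each treated group of 3 libraries from the 3 untreated libraries, by gene (rows) and group (columns); red is higher, blue lower, and an asterisk marks an adjusted p under 0.05. PSAT1 and ASNS reach 1.62 and 1.66 at 24 h of H2O2, while SHMT1 is at -0.99 and -0.94 at 24 h of H2O2 and NCS.

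Counted together against untreated cells, 6 members rose and 1 fell at 4 h of H2O2, beside 26.2% and 19.7% of all tested genes. At 8 h of H2O2, 8 were higher and 2 lower (18.8% and 18.6% of all genes), and at 24 h again 8 and 2 (20.2% and 19.9%). The members' median difference was 0.30, 0.70 and 0.75 in the order of time, while the median of all genes was 0.00 each time. PSAT1, MTHFD2 and ASNS were called differentially expressed at 8 h, where 0.32% of all genes were called higher, and PHGDH, PSAT1 and ASNS at 24 h (0.325%). Without H2O2 8 h replicate 2 the number called at 8 h was 5, with PHGDH at 1.00 and PSPH at 1.06 in addition.

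After NCS the counts were smaller until 24 h. At 4 h no member was higher and 2 were lower, PSPH and ALDH1L2 (7.47% and 9.72% of all genes). At 8 h 1 was higher and 3 were lower (10.5% and 13.3%), and at 24 h 7 were higher and 2 lower (19.6% and 18.4%). The members' medians were -0.06, -0.01 and 0.30. No member was called differentially expressed after NCS at any time. Few of all tested genes were: 18, 13 and 25 were called higher at 4, 8 and 24 h, and 25, 54 and 270 lower. The absence of a call therefore does not set the members apart from other genes. H2O2 8 h replicate 2 also entered the estimate of the spread that all comparisons share, so leaving it out also changed calls in comparisons of other groups, whose differences did not move. Without it 1 member was higher and 3 were lower at 4 h of NCS, with MTHFD1L (limma adjusted p = 0.0131) and PSAT1 passing in addition. PHGDH then passed as lower at 8 h of NCS (0.0218), SHMT2 as higher at 24 h of NCS (0.0124) and MTHFD1L as higher at 4 h of H2O2 (0.0281).

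To compare the stresses directly, H2O2 was set against NCS at the same time. At 4 h 7 members were higher after H2O2 and none was lower (26.3% and 18% of all genes), at 8 h 8 were higher and 1 lower (18.7% and 15.4%), and at 24 h 8 were higher and none lower (11% and 10.9%). The members' median difference was 0.41, 0.71 and 0.28. The largest differences were those of PSAT1, with 0.86, 1.49 and 0.96 at 4, 8 and 24 h (limma adjusted p = 6.11e-09, 5.78e-11 and 6.47e-09), and of ASNS, with 0.71, 1.31 and 0.87 (limma adjusted p = 1.91e-07, 5.05e-10 and 5.88e-08). PHGDH, PSAT1, MTHFD2 and ASNS were called at 8 h, where 0.157% of all genes were called higher. With all 19694 genes ordered from the highest to the lowest H2O2 minus NCS difference at 24 h, PSAT1 was number 5, ASNS number 10 and PHGDH number 16.

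MTHFD2 differed by 0.66, 1.29 and 0.52 between H2O2 and NCS, PHGDH by 0.45, 1.03 and 0.82, and PSPH by 0.47, 0.90 and 0.24 (all passed). For SHMT2 the differences were 0.36, 0.51 and 0.31 and for ALDH1L2 0.22, 0.48 and 0.22, all of which passed. In each of these 5 genes, and in PSAT1 and ASNS, the H2O2 libraries were all above the NCS libraries at each time. The share of all genes separated in this way was not calculated. MTHFD1L differed by -0.02 at 4 h, which did not pass, and by 0.29 and 0.11 at 8 and 24 h (limma adjusted p = 3.2e-06 and 0.0264). The difference of 0.11 did not pass with library medians aligned (limma adjusted p = 0.072), nor when H2O2 24 h replicate 2 or 3 or NCS 24 h replicate 1 or 2 was left out.

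SHMT1 and MTHFD1 differed little between the stresses. The SHMT1 differences of -0.06 at 4 h and -0.06 at 24 h did not pass, with 95% intervals of -0.19 to 0.07 and -0.19 to 0.08. That of -0.18 at 8 h passed (limma adjusted p = 0.0363), with overlapping libraries, but not in a fit of only the groups compared (limma adjusted p = 0.206), after quantile normalization (0.0657), or without H2O2 8 h replicate 1 or 3 or NCS 8 h replicate 3. For MTHFD1 the differences were -0.07, -0.07 and 0.07, none of which passed, with 95% intervals of -0.15 to 0.01, -0.15 to 0.01 and -0.01 to 0.15. Without H2O2 8 h replicate 2 the MTHFD1 difference at 8 h was -0.12 and passed (limma adjusted p = 0.0127), which made 2 members lower at that time.

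**Figure D3:**
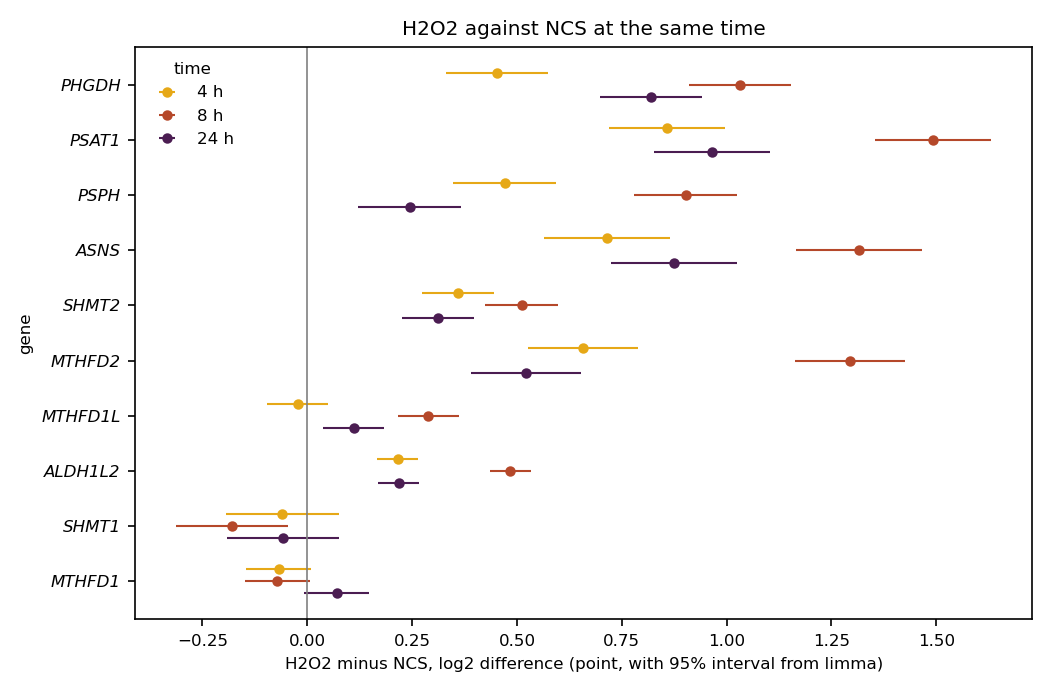
H2O2 minus NCS log2 difference of each member at 4, 8 and 24 h (points, 3 libraries against 3) with the 95% interval from limma; the vertical line marks no difference. The 8 h point is the farthest to the right for 8 members, up to 1.49 for PSAT1, while the SHMT1 and MTHFD1 points lie between -0.18 and 0.07.

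The course over time differed between treatments and between members. From 4 to 8 h of H2O2, 8 members rose and 2 fell (18% and 27.7% of all genes), with rises from 0.16 for SHMT2 to 0.83 for ASNS. The SHMT2 rise did not pass in a fit of only the groups compared (limma adjusted p = 0.0801). From 8 to 24 h of H2O2, 3 members rose and 4 fell (19.4% and 23.2%). MTHFD2 fell by 0.52, PSPH by 0.24, SHMT1 by 0.59 and MTHFD1 by 0.32, while ALDH1L2 rose by 0.40, ASNS by 0.20 and PHGDH by 0.17 (limma adjusted p = 1.67e-06, 0.00245, 4.22e-07, 1.22e-06, 1.42e-10, 0.0284 and 0.0257). The rises of ASNS and PHGDH did not pass without H2O2 8 h replicate 2, where they were 0.10 and 0.07 and SHMT2 fell by 0.14 (limma adjusted p = 0.00306). Those of ASNS and PHGDH and the fall of PSPH did not pass in a fit of only the groups compared (limma adjusted p = 0.173, 0.166 and 0.0731). The ASNS rise also did not pass without H2O2 24 h replicate 3, and the PHGDH rise without H2O2 24 h replicate 2 or 3.

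After NCS most of the change came late. From 4 to 8 h 3 members rose, PSPH by 0.26, ASNS by 0.23 and ALDH1L2 by 0.08, and MTHFD1 and SHMT1 fell by 0.20 each (6.16% of all genes rose and 7.5% fell). The SHMT1 fall lay close to the threshold (limma adjusted p = 0.0451) and did not pass in 15 of the 21 fits with 1 library left out, and ASNS (limma adjusted p = 0.0431) did not pass in 12 of them. The ALDH1L2 rise did not pass with library medians aligned (limma adjusted p = 0.0727) or without NCS 4 h replicate 1 or 2 or NCS 8 h replicate 1 or 2. Without H2O2 8 h replicate 2, the rises of 0.16 for PSAT1 and 0.08 for MTHFD1L passed as well (limma adjusted p = 0.0114 and 0.0337), which made 5. From 8 to 24 h of NCS 8 members rose and 2 fell (14.9% and 15%). ALDH1L2 rose by 0.67, PSAT1 by 0.65 and ASNS by 0.64, numbers 28, 30 and 31 of all 19694 genes in the order from largest rise to largest fall, and SHMT1 fell by 0.71 and MTHFD1 by 0.46.

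From 4 to 24 h the H2O2 minus NCS difference itself rose in 3 members and fell in 1 (16.6% and 22.7% of all genes). It rose by 0.37 for PHGDH, 0.14 for MTHFD1 and 0.13 for MTHFD1L and fell by 0.23 for PSPH (limma adjusted p = 0.00148, 0.0436, 0.0357 and 0.0372). In a fit with library medians aligned the changes of MTHFD1 and MTHFD1L did not pass (limma adjusted p = 0.0509 and 0.0777). Without H2O2 8 h replicate 2 the change of -0.14 for MTHFD2 passed (limma adjusted p = 0.00896), which made 2 members that fell. For ALDH1L2 and SHMT1 the change was 0.00, with 95% intervals of -0.07 to 0.07 and -0.19 to 0.19.

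Within each library the mitochondrial enzyme was also set against its cytosolic relative. Only the change of this difference is read, since the values are not per length. SHMT2 minus SHMT1 was 3.83 ± 0.0702 (SD, n = 3) in untreated libraries and rose by 0.41, 0.89 and 1.40 at 4, 8 and 24 h of H2O2. After NCS it changed by -0.01, 0.20 and 1.04. MTHFD1L minus MTHFD1 rose by 0.19, 0.79 and 1.09 after H2O2 and by 0.15, 0.43 and 1.05 after NCS. In 11 of these 12 comparisons the 3 treated libraries were all above the 3 untreated ones (two-sided exact permutation p = 0.1, the smallest that 3 against 3 can give), and at 4 h of NCS SHMT2 minus SHMT1 had p = 0.9. At 24 h of both treatments the fall of the cytosolic member was larger in value than the difference of the mitochondrial one. After H2O2, SHMT1 fell by 0.99 against 0.41 for SHMT2, and MTHFD1 fell by 0.64 against 0.45 for MTHFD1L. After NCS, SHMT1 fell by 0.94 against 0.10, and MTHFD1 fell by 0.71 against 0.34.

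**Figure D4:**
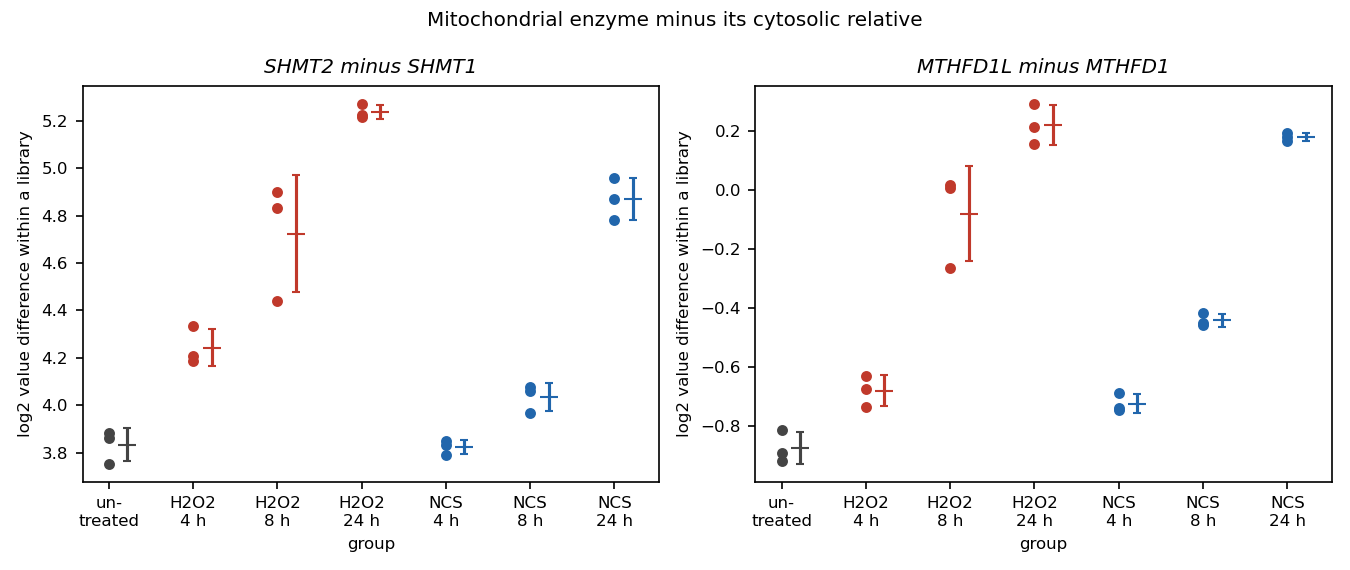
Within-library difference of log2 values for SHMT2 minus SHMT1 and MTHFD1L minus MTHFD1 in the 7 groups; points are libraries, and the bars beside them are the mean and SD (n = 3). The H2O2 24 h and NCS 24 h libraries lie above the untreated ones in both panels, with mean changes of 1.40 and 1.04 on the left and 1.09 and 1.05 on the right.

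The genes most similar to each member over the 21 libraries were found by correlation. Correlations here are descriptions over libraries that share the same treatments, among about 2299 genes with a mean of at least 5 and an SD of at least 0.2. PSAT1 and ASNS were each other's most similar gene (Pearson r = 0.993), and the next were NARS (0.992) and YARS (0.987) for PSAT1 and MARS (0.989) and NARS (0.988) for ASNS, which all encode aminoacyl-tRNA synthetases. PHGDH was closest to PSAT1 (0.985), BTG1 (0.985), an antiproliferation gene, and NARS (0.974). MTHFD2 was closest to SLC1A5 (0.993) and SLC1A4 (0.985), transporters of neutral amino acids, and to GPT2 (0.985), a mitochondrial alanine aminotransferase. SHMT2 was closest to XPOT (0.976), a tRNA exporter, SLC3A2 (0.975), a chain shared by amino acid transporters, and LMO4 (0.974). ALDH1L2 was closest to CBS (0.989), which joins serine and homocysteine, CTAGE5 (0.966) and AARS (0.966).

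PSPH was closest to APOL6 (0.981), PLIN2 (0.974) and NCOA7 (0.973), and MTHFD1L to CCND2 (0.961), SAT1 (0.957) and RNF41 (0.955). SHMT1 and MTHFD1, the 2 cytosolic one-carbon members, were close to each other (r = 0.976). SHMT1 was closest to FANCI (0.989) and FANCD2 (0.987), of the Fanconi anemia DNA repair pathway, and ICMT (0.989), a methyltransferase. MTHFD1 was closest to WDHD1 (0.992) and TIMELESS (0.991), which act at replication forks, and NCAPD3 (0.989), a condensin subunit. Across the same libraries SHMT1 and ALDH1L2 ran opposite to each other (r = -0.932).

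The falls of SHMT1 and MTHFD1 went with falls of S-phase genes. Of 12 S-phase genes, 12 fell at 24 h of H2O2 and 12 at 24 h of NCS, with medians of -1.44 and -1.58, and 11 fell at 8 h of each. RRM2, a subunit of ribonucleotide reductase, fell by 1.80 and 1.75 at 24 h of H2O2 and NCS. CDC6, which loads the replicative helicase, fell by 1.75 and 1.66, and UHRF1, which keeps DNA methylation through replication, fell by 1.85 after H2O2 and fell by 1.90 after NCS. At 4 h 1 rose and 6 fell after H2O2 and 2 rose and 2 fell after NCS. Between H2O2 and NCS at 24 h, 4 of the 12 were higher after H2O2 and none lower, with a median of 0.04. Whether fewer cells in S phase had a part in the values of SHMT1 and MTHFD1 was not tested.

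Other enzymes around the members were counted by list. Of 21 other folate enzymes and carriers, 2 rose and 7 fell at 4 h of H2O2, 1 and 10 at 8 h, then 3 and 9 at 24 h, with a median of -0.08 at 24 h. After NCS none passed at 4 h, 1 rose and 4 fell at 8 h, and 4 rose and 8 fell at 24 h. TYMS, which makes thymidylate, fell by 1.26 and 1.24 at 24 h of H2O2 and NCS, and SLC19A1, the reduced folate carrier, fell by 0.93 and 0.94. All 10 purine synthesis genes fell at 24 h of H2O2 and 9 at 24 h of NCS, with medians of -0.19 and -0.23. Among them PPAT, which takes the first committed step, fell by 0.57 and 0.75, PFAS fell by 0.60 and 0.71, and PAICS fell by 0.67 and 0.67. At 4 h 1 purine gene rose and 4 fell after H2O2 and 1 rose and 2 fell after NCS, and at 8 h none rose while 6 and 5 fell.

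In the methionine cycle and transsulfuration (10 genes), 3 rose and 4 fell at 24 h of either treatment, 2 rose and 6 fell at 8 h of H2O2, and 4 fell at 8 h of NCS. At 4 h 2 rose and 2 fell after H2O2 and 2 fell after NCS. CBS, which joins serine to homocysteine, rose by 0.19, 0.62 and 1.12 at 4, 8 and 24 h of H2O2 and by 0.76 at 24 h of NCS. CTH, which releases cysteine from the product, rose by 0.43 and 0.27 at 8 and 24 h of H2O2 and by 0.20 at 24 h of NCS, and MTAP, of methionine salvage, fell by 0.26 and 0.41 at 24 h.

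Of 16 genes of other nonessential amino acids, 5 rose and 1 fell at 4 h of H2O2, 6 and 3 at 8 h, then 6 and 4 at 24 h. After NCS 1 rose and 3 fell at 4 h, 4 and 3 at 8 h, then 8 and 2 at 24 h. GPT2 rose by 0.61, 1.26 and 0.65 over the times of H2O2, highest at 8 h like MTHFD2, and PCK2, the mitochondrial PEP carboxykinase, by 0.28, 0.75 and 1.29. GOT1, the cytosolic aspartate aminotransferase, rose by 0.58 and 0.54 at 8 and 24 h of H2O2. After 24 h of NCS the rises were 0.24 for GPT2, 0.67 for PCK2 and 0.24 for GOT1. Of 5 genes that break down or racemize serine or asparagine, ASPG was listed at 0 throughout. Of the other 4, at 24 h SDSL rose by 0.76 after H2O2 and 0.63 after NCS, SRR, serine racemase, fell by 0.29 and 0.23, and the others did not pass; ASRGL1 (mean log2 value 1.56) had -0.02 and 0.02.

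Kinases and factors of the integrated stress response were counted as well, since ATF4 is known to act on several members. Of 11 such genes, 7 rose and 3 fell at 4 h of H2O2, 7 and 1 at 8 h, then 6 and 3 at 24 h, with medians of 0.60, 0.80 and 0.55. After NCS 1 rose and 4 fell at 4 h, 4 and 1 at 8 h, then 8 and 1 at 24 h, with medians of -0.06, -0.03 and 0.21. Between the stresses, 7, 8 and 6 were higher after H2O2 at 4, 8 and 24 h, and 3, 1 and 3 were lower. TRIB3, a pseudokinase induced by this response, rose by 1.06, 1.92 and 2.08 after H2O2 and by 0.51 and 1.10 at 8 and 24 h of NCS. DDIT3, a C/EBP family factor, rose by 1.45, 1.20 and 1.39 after H2O2 and by 0.83 and 0.88 at 8 and 24 h of NCS. Its rise at 8 h of NCS had a limma adjusted p of 3.08e-08, and whether DDIT3 had a part in the members' changes was not tested. NUPR1 rose by 0.42, 0.85 and 1.49 after H2O2 and by 0.72 at 24 h of NCS. ATF4 itself, chosen here after its values were seen, rose by 0.92, 0.97 and 0.55 after H2O2 (limma SE 0.0579), fell by 0.18 at 4 h of NCS and rose by 0.21 at 24 h. Whether ATF4 had a part in the members' changes was not tested.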

How the data were processed

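RNA came from untreated cells and from cells 4, 8 or 24 h after treatment, and libraries were made with a stranded mRNA kit. The authors used HISAT2 for alignment, htseq-count for counting and DESeq2 for the rLog transformation, and the deposited values are on its log2 scale. Per the labels' processing notes the build was hg19; the annotation and tool versions are not given in the sources used here. Counts were not used here, so depth is unknown and no interval or floor based on it was calculated. Genes at 0 in every library (3674 of 23368) were left out, and 28 gene names had been turned into dates.

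The 7 groups were fitted together with limma 3.58.1 (R 4.3.3) and its trended empirical Bayes step for 14 comparisons, with p-values adjusted by Benjamini-Hochberg over 19694 genes. Within-library differences were tested with exact permutation tests in scipy 1.17.1. Tested on simulated data for H2O2 8 h against untreated (19694 genes), the fit recovered 44 of 50 genes changed by 0.3 and all 50 changed by 0.6, with 11 false calls. The simulation gave each gene the same spread in all groups and held no library that stood apart. Its recovery and false calls therefore do not describe the real H2O2 8 h group. The alternatives were aligned library medians, quantile normalization, a mean of at least 5, only the groups compared, a replicate block, no trend, a log2 difference over 0.58 and each library left out in turn. Promoter windows came from RefSeq (GRCh38.p14), and no coordinate was converted between builds.

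The members and the gene lists were chosen with earlier results of these data known. Besides the 10 members, the text names the 3 genes most correlated with each member and the 3 genes of each list with the largest difference from untreated cells, and marks any other as chosen after its values were seen. Of the genes this rule names, 1 is not reported here. Marker genes are named as a check of the cell type.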

Additional observations from a re-analysis of the deposited data

Results flagged for a closer look

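In 4 members the H2O2 minus NCS log2 difference at 24 h differed from that at 4 h in a test of the change itself (limma, adjusted over 19694 genes). It rose in 3 and fell in 1, beside 16.6% and 22.7% of all tested genes. The change was 0.37 for PHGDH (adjusted p = 0.00148), which was higher after H2O2 than after NCS at both times in 3 of 3 libraries. It was -0.23 for PSPH (adjusted p = 0.0372), 0.14 for MTHFD1 (adjusted p = 0.0436) and 0.13 for MTHFD1L (adjusted p = 0.0357). The PHGDH change passed in every fit with 1 library left out and ranged there from 0.33 to 0.40. The other 3 changes lay close to the threshold, and they did not pass in 9, 11 and 8 of the 21 such fits for PSPH, MTHFD1 and MTHFD1L. Groups of 3 libraries are too small for a test of single outlying libraries.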

How the results depend on the processing

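Of the 140 member differences, 128 kept their direction and side of the threshold with library medians aligned, 129 after quantile normalization, 135 among genes with a mean of at least 5, 129 in a fit of only the groups compared and 136 without the variance trend. With library medians aligned, PSAT1 and MTHFD2 at 8 h of NCS turned to -0.0117 and -0.0148, and the change from 4 to 24 h turned to -0.0218 for SHMT1 and -0.0213 for ALDH1L2, with 1 member rising in that change. After quantile normalization SHMT2 turned to 0.0263 at 8 h of NCS and 0.00346 from 8 to 24 h of H2O2, MTHFD1L to 0.0126 in that step, and the change from 4 to 24 h to -0.0903 for SHMT1 and 0.0353 for SHMT2. There 1 member was higher at 4 h of NCS, 0 were lower between H2O2 and NCS at 8 h, and 1 was called between them at 24 h. Among genes with a mean of at least 5, 1 member was higher at 4 h of NCS. In a fit of only the groups compared, 1 was higher at 4 h and 1 lower at 8 h of NCS, 0 were lower between H2O2 and NCS at 8 h, 1 rose from 8 to 24 h of H2O2 and 2 fell in the change from 4 to 24 h. Without the trend, 1 member fell from 4 to 8 h of NCS and 0 in the change from 4 to 24 h. With a limit of 0.58 in place of 1, the members called in either direction numbered 3, 5 and 8 at 4, 8 and 24 h of H2O2, 5 at 24 h of NCS, and 3 and 3 between the stresses at 4 and 24 h. At 24 h of both treatments these counts include the falls of SHMT1 and MTHFD1. The share of all genes called at this limit was not calculated. None of the reversed values had passed, and the cause of these changes was not tested. The replicate numbers did not pair the libraries: in 0 of 21 pairs of groups were all 3 same-number correlations over 0.1 (mean 0.0274 against -0.0137 for different numbers). With a replicate block 138 of 140 values kept their side, SHMT2 at 24 h of NCS passed, and 1 member in place of 2 fell from 4 to 8 h of NCS.

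With 1 library left out, 2820 of 2940 member differences kept their direction and side. Lowest and highest counts were 3 to 5 called at 8 h of H2O2 (5 without replicate 2), 0 to 1 lower at 4 h of H2O2 (0 without untreated replicate 3), 0 to 1 higher (1 without H2O2 8 h replicate 2 or 3) and 1 to 3 lower at 4 h of NCS. Between H2O2 and NCS, 0 to 2 were lower at 8 h and 0 to 1 called at 24 h (1 without H2O2 24 h replicate 1). From 8 to 24 h of H2O2, 1 to 4 rose (1 without H2O2 8 h replicate 2), and from 4 to 8 h of NCS 1 to 5 rose and 1 to 2 fell, the first count moving without H2O2 8 h replicate 2, NCS 4 h replicate 1 or 2, or NCS 8 h replicate 1 or 2. In the change from 4 to 24 h, 1 to 3 rose and 0 to 2 fell, the first moving without H2O2 4 h replicate 1, H2O2 24 h replicate 3, NCS 4 h replicate 1, or NCS 24 h replicate 1 or 2. Differences that crossed 0, none of which had passed, ranged from -0.0603 to 0.0236 for SHMT1 at 4 h of NCS, -0.0381 to 0.0530 for PSAT1 and -0.0201 to 0.0313 for MTHFD2 at 8 h of NCS, -0.0636 to 0.0156 for MTHFD1L from 8 to 24 h of H2O2, -0.00517 to 0.0214 for SHMT2 from 4 to 8 h of NCS, and, in the change from 4 to 24 h, -0.0236 to 0.0320 for SHMT1 and -0.00560 to 0.0128 for ALDH1L2. SHMT2 minus SHMT1 at 4 h of NCS ranged from -0.0495 to 0.0162. The rLog values hold no counts, so how far depth limits the small differences is unknown.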

Other observations

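Some carriers, relatives of the members and proline synthesis genes are given here, chosen after their values were seen. SFXN1, which carries serine into mitochondria, fell by 0.40 at 24 h of H2O2 and by 0.32 at 24 h of NCS (limma adjusted p = 2e-08 and 5.58e-07). SLC25A32, the mitochondrial folate carrier, rose by 0.22 at 4 h of H2O2, was near untreated cells at 8 h with -0.00, and fell by 0.23 at 24 h. MTHFD2L, a relative of MTHFD2, had differences of 0.18, 0.21 and 0.09 after H2O2, none of which passed. ALDH1L1, the cytosolic relative of ALDH1L2, passed in no comparison with untreated cells. Its mean log2 value of 1.87 was low, and differences of genes with few reads are understated. Of the proline synthesis genes, PYCR1 rose by 0.32, 0.43 and 0.31 after H2O2 and by 0.38 at 24 h of NCS, while ALDH18A1 rose by 0.13 at 4 h of H2O2 and fell by 0.13 and 0.38 at 8 and 24 h.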
